A study of Mus musculus with 4 samples.

Results

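Guidance genes encode the secreted and membrane-bound cues, with their receptors, that tell axons, migrating cells and sprouting vessels where to go. Mouse genes of 4 such systems were read here from arrays of embryonic dorsal dermis: semaphorins with plexins and neuropilins, ephrins with Eph receptors, Slits with Robos, and netrins with the Unc5 and Dcc receptors. Members were chosen by gene symbol alone among probe sets whose platform annotation names 1 gene, which gave 65 of 18193 genes and 148 of 45101 probe sets. Where a gene has several probe sets, the one brightest on average over the 4 arrays stands for it. The antisense transcript Plxna4os1, whose symbol begins like a plexin, was not counted, and its signal was 10.5 or less on every array.

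The series holds 4 arrays of dermal RNA from dorsal skin of mouse embryos at E15.5, 2 labelled mutant and 2 labelled control. In what follows, a pair of values for the controls or the mutants stands in the order replicate 1, replicate 2. The mutant genotype is KRT14-Cre Ctnnb1(Ex3)fl/+, in which Cre driven by the keratin 14 promoter of surface epithelium deletes an exon of 1 Ctnnb1 allele and leaves a beta-catenin that escapes degradation. The controls were littermates whose alleles the labels do not spell out. The Cre driver is epithelial, so the dermis analysed is neighbouring tissue and not the one in which the driver is active, and dermis was parted from epidermis with dispase. Nothing in the labels gives the sex of the embryos or says whether RNA was pooled.

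Semaphorins act through plexins, with neuropilins as co-receptors for most class 3 members, and commonly repel axons. Ephrins signal in both directions between touching cells, the A class on a lipid anchor and the B class across the membrane, and set boundaries between cell groups. Netrins attract through Dcc and repel through Unc5 receptors, and Slits repel through Robos. In skin these cues are known for patterning sensory nerves and vessels that grow through the dermis.

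Several facts about the arrays touch every value below. The trimmed mean signal was 150.0 on every array, and array medians lay between 28.7 and 32.4. The sex-linked transcripts differed: Xist was 11.4 on mutant 1 and 3108 to 3836 on the other arrays, and Eif2s3y was 524 on mutant 1 and at most 1.81 elsewhere, the pattern of a male embryo on mutant 1 and of female embryos on the others. Ctnnb1 gave 5335 (control 1) and 4397 (mutant 2) against 4721 (control 2) and 4838 (mutant 1), a value that does not check the labels because the allele is altered in epithelium. The instrument records place control 2 and mutant 1 on fluidics modules 1 and 2, scanned first, and control 1 and mutant 2 on modules 3 and 4, scanned after them on the same day. For every array the sample type entered in these records is mouse epidermis, while the labels say dermis. All 10 dermal fibroblast markers passed the brightness filter, and their summed signal was 36365 and 42471 in the controls against 46765 and 31053 in the mutants. Epidermal markers summed to 4708 on mutant 1 against 1074 to 1353 elsewhere, cartilage markers to 11155 on mutant 2 against 299 to 382 elsewhere, and skeletal muscle markers to 3311 on control 1 against 9089.8 to 18329 elsewhere. In bulk RNA, fewer cells of a type and less RNA per cell cannot be told apart.

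The authors' deposited table of changed genes goes against the array labels for the guidance genes it holds. It lists 153 probe sets, of which 3 report guidance genes. The authors' deposited table gives mutant over control ratios of 77.0 and 56.9 for the 2 probe sets of Unc5c, a netrin receptor that mediates repulsion. The second of these gave 188 on control 1 and 234 on mutant 2, against 29.0 on control 2 and 40.2 on mutant 1, and the first gave 132 and 146 against 18.1 and 8.95. The third is a dim probe set of Epha7, an Eph receptor of the A class, at a ratio of 2.77 in the authors' deposited table, with 21.1 on control 1 and 25.9 on mutant 2 against 7.46 and 9.22 on control 2 and mutant 1. In each case the high arrays were 1 of each label. Whether a control and a mutant array carry each other's label was not tested, and every difference by label below is between arrays as labelled. Values are therefore given by label and also array by array, for control 1 with mutant 2 and control 2 with mutant 1. Because this grouping of arrays came from the data themselves, it gets no mean and no test. It also coincides with the order of scanning and the fluidics modules, from which it cannot be told apart.

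Of the 65 guidance genes, 4 had both control 1 and mutant 2 at least 2-fold above, or below, both other arrays on the signal + 16 scale, and all 4 were among the 56 that passed the brightness filter. They are 7.14% of the 56, against 2.51% of all 11413 tested genes. Separations below are on that scale, as the ratio between the nearest arrays of the 2 pairs. The 4 are Unc5c and Epha7, higher on control 1 and mutant 2, and Sema6d and Ntn4, lower there. Their promoters are shown because these genes carry the widest separation between arrays, each as 250 bases before and 50 bases after the first start that RefSeq lists, build GRCm38.p6, plus strand, with CpG dinucleotides in capitals. The windows are chr3:141465314-141465613 for Unc5c, chr4:28812881-28813180 for Epha7, chr2:124089719-124090018 for Sema6d and chr10:93640799-93641098 for Ntn4.
Unc5c: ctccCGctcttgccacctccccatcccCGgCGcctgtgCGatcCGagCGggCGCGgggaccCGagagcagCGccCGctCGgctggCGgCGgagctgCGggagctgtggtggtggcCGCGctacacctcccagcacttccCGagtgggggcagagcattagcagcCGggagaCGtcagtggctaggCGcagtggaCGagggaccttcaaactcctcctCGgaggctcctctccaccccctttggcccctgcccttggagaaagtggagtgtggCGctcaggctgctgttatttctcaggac
Epha7: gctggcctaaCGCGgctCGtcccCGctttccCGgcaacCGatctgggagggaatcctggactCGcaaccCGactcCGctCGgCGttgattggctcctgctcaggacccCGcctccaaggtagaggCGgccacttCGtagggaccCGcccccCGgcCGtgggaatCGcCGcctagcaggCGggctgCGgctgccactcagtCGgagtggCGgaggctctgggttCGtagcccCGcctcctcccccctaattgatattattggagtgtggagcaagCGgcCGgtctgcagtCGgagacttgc
Sema6d: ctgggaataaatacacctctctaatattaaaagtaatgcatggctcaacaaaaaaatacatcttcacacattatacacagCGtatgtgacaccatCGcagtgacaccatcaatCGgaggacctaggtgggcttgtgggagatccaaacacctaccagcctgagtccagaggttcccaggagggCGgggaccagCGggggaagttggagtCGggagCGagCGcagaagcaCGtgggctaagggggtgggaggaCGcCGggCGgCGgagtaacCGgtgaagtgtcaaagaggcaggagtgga
Ntn4: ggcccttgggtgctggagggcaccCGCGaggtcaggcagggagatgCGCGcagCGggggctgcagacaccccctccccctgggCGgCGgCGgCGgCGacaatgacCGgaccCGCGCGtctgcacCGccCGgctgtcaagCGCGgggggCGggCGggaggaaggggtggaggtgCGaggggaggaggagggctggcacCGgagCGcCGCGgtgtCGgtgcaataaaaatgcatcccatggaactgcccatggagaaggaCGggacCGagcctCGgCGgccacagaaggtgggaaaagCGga
The windows hold 24 CpG in Unc5c, 28 in Epha7, 14 in Sema6d and 31 in Ntn4, where the median over the 48 tested guidance genes with a listed promoter was 23 and that over 9222 tested genes was 21. A TCF/LEF motif, the sequence bound by the partners of beta-catenin, was searched on both strands in 4 spellings. The spellings were CTTTGAA with the alternative CTTTGAT, followed by CTTTGTA with the alternative CTTTGTT. None of the 4 windows held these letters. They occurred in 7 of the 48 tested guidance genes (14.6%) in 11.0% of the 9222 tested genes and in 16.9% of all 27025 genes with a listed promoter.

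Both netrin ligands of the set, Ntn1 and Ntn4, were lower on control 1 and mutant 2, as were 23.9% of all 11413 tested genes. Of the 4 tested netrin receptors, 3 were higher there, as were 29.6% of all tested genes. Dcc, counted among those 3, passed the brightness filter only through control 1 and mutant 2. The bars of signal per array show these genes. Ntn1, the netrin that guides commissural axons, gave 483 (control 1) and 444 (mutant 2) against 910 (control 2) and 834 (mutant 1). Ntn4, a netrin of basement membranes, gave 23.7 (control 1) and 39.3 (mutant 2) against 109 (control 2) and 108 (mutant 1). Ntn1 and Ntn4 were thus higher on control 2 and mutant 1, with no overlap between those arrays and the others. The nearest arrays were 1.71 times apart for Ntn1 and 2.25 times for Ntn4. Ntn3, a netrin outside the set and below the brightness filter, had the opposite order. It gave 35.1 (control 1) and 36.1 (mutant 2) against 25.7 (control 2) and 12.6 (mutant 1). A dimmer Ntn4 probe set gave 0.747 and 3.14 on control 1 and mutant 2 against 22.6 and 22.9. A dimmer Ntn1 probe set overlapped, at 44.9, 40.8, 44.8 and 20.7 in the order control 1, control 2, mutant 1, mutant 2.

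**Figure D1:**
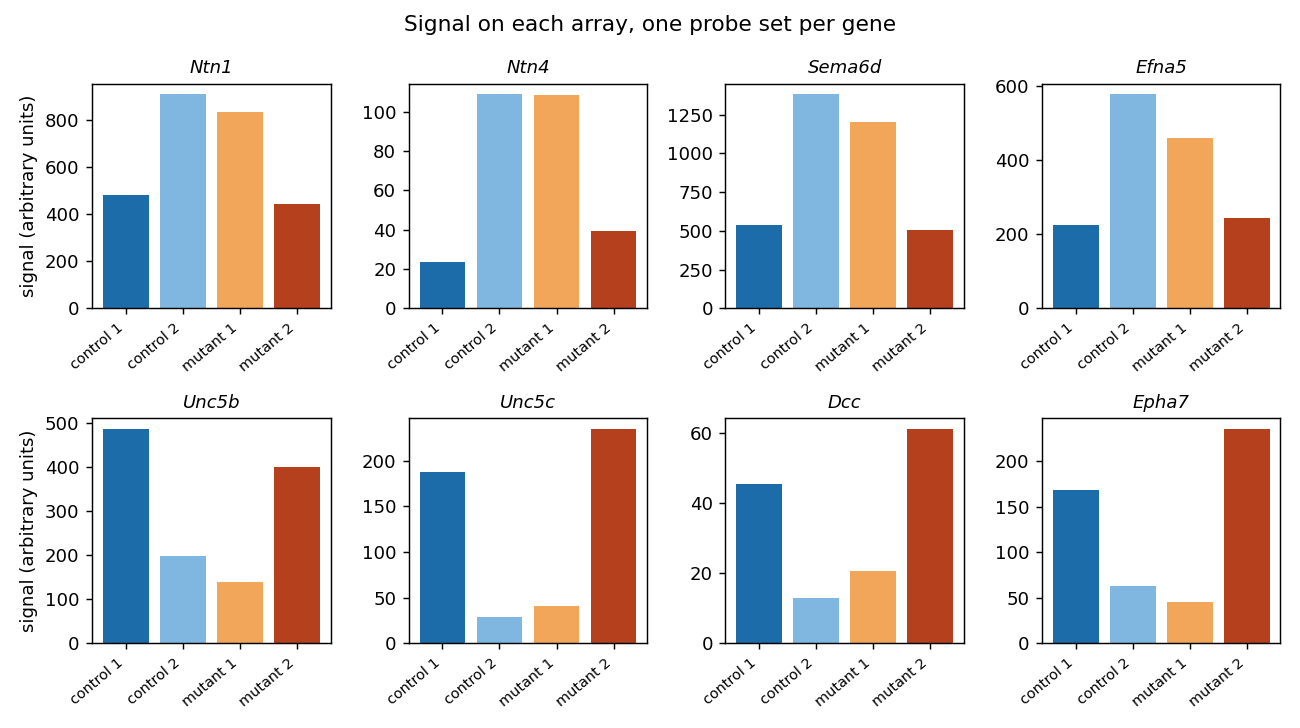
Signal in arbitrary units on each of the 4 arrays, one bar per array, for 2 netrins, Sema6d, Efna5, 3 netrin receptors and Epha7, each with its own vertical axis from 0. The upper row is higher on control 2 and mutant 1 (Ntn1 at 910 and 834) and the lower row is higher on control 1 and mutant 2 (Unc5c at 188 and 234).

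Unc5c had the widest separation of all tested guidance genes, at 3.63. Unc5b, a netrin receptor of vessel endothelium and other cells, gave 486 (control 1) and 400.0 (mutant 2) against 197 (control 2) and 139 (mutant 1). Its nearest arrays were 1.95 times apart, just short of the 2-fold used above, and its second probe set gave 229 and 206 against 99.9 and 59.8. Dcc, the attractive netrin receptor, gave 45.2 (control 1) and 61.0 (mutant 2) against 12.8 (control 2) and 20.5 (mutant 1), a dim signal with a separation of 1.68. Another Dcc probe set, below the filter, had the same order. A further one overlapped, at 25.3, 21.0, 25.7 and 19.6 in the order control 1, control 2, mutant 1, mutant 2. Unc5a, another repulsive receptor, did not separate in this way, with 41.8 and 32.1 in the controls against 24.0 and 25.6 in the mutants. Unc5d did not pass the brightness filter.

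Eph receptors and ephrins mostly lay higher on control 1 and mutant 2. Of the 8 tested Eph receptors, 6 had both of these arrays above both others and 1 had them below. The same counts, 6 and 1 of 8, held for the ephrins. Of all 11413 tested genes, 29.6% lay above in this way and 23.9% below. These counts take no account of the width of the separation, which was narrow for some members. Ephb6, dim and counted as above, gave 40.9 (control 1) and 38.5 (mutant 2) against 30.9 (control 2) and 37.8 (mutant 1). Ephb1, also dim and counted as above, gave 41.4 and 35.4 against 32.0 and 33.1. Among the ephrins counted as above, the dimmer tested probe set of Efna2 overlapped. Epha7 gave 169 (control 1) and 235 (mutant 2) against 62.5 (control 2) and 45.8 (mutant 1), a separation of 2.35 times between the nearest arrays. All 4 of its probe sets had the same order. Epha4, which binds ephrins of both classes, gave 205 and 187 on control 1 and mutant 2 against 127 and 130.1 on control 2 and mutant 1, an order that 2 of its 5 probe sets did not have. Epha2, a receptor common in epithelia, gave 114 and 102 against 55.9 and 59.4.

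Ephb3 and Efna5 went the other way from their families. Ephb3, a receptor for B-class ephrins, gave 225 (control 1) and 204 (mutant 2) against 521 (control 2) and 348 (mutant 1). Efna5, a lipid-anchored ephrin, gave 225 (control 1) and 243 (mutant 2) against 579 (control 2) and 462 (mutant 1), with the nearest arrays 1.84 times apart. Among ephrins that lay higher on control 1 and mutant 2, Efnb1 had the widest separation. It gave 269 and 290.0 on those arrays against 158 and 132 on control 2 and mutant 1, and its other 2 probe sets had the same order. Efnb1 lies on the X chromosome, as do Plxna3 and Plxnb3, and mutant 1 was the lowest array for Efnb1 (132) and Plxna3 (141) but not for Plxnb3 (62.6, where mutant 2 gave 41.2). The part of embryo sex in these values was not tested.

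Of 19 tested semaphorins, 6 lay above on control 1 and mutant 2 (31.6%) and 5 below (26.3%), close to the shares of all tested genes (29.6% and 23.9%). Sema6d, a transmembrane semaphorin, gave 538 (control 1) and 508 (mutant 2) against 1381 (control 2) and 1203 (mutant 1). Its separation was 2.20, and its 3 other probe sets had the same order at lower signal. Sema3d, a secreted repellent of the third class, gave 397 (control 1) and 312 (mutant 2) against 691 (control 2) and 694 (mutant 1). Sema3a, the secreted repellent of sensory axons, had the opposite order, with 367 and 333 on control 1 and mutant 2 against 204 and 214. All 3 probe sets of Sema3a showed that order.

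Of 9 tested plexins, 2 lay above and 2 below on control 1 and mutant 2, and of 2 neuropilins 1 lay above, where 53.5% of all tested genes lay on one side. Plxna4, a receptor used with neuropilins by class 3 semaphorins, gave 17.0 (control 1) and 42.1 (mutant 2) against 90.5 (control 2) and 58.3 (mutant 1), so its lowest and its highest array were both controls. Plxnb2 gave 781 and 748 in the controls against 644 and 810 in the mutants. Nrp1, a co-receptor for Sema3a and for VEGF, gave 1538 and 1634 in the controls against 1510 and 1366 in the mutants. Nrp2, the co-receptor favoured by Sema3f, gave 691 and 631 against 499.6 and 699. Its separation between the pairs was 1.09, and its dimmer probe sets overlapped between the pairs. A dimmer Nrp2 probe set had both mutants above both controls, at 314 and 324 in the controls against 351 and 377 in the mutants.

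The tested Robos and Slit3 lay lower on control 1 and mutant 2, as did Ntn1 and Ntn4, whereas Slit2 did not. Of all 11413 tested genes, 23.9% lay lower there. Slit3 gave 148 (control 1) and 116 (mutant 2) against 311 (control 2) and 238 (mutant 1). Its receptor Robo1 gave 291 (control 1) and 309.6 (mutant 2) against 430 (control 2) and 412 (mutant 1), and Robo2 gave 39.5 and 48.9 against 63.7 and 73.2. A Robo1 probe set below the filter had the reverse order, at 12.3 and 12.8 against 7.39 and 10.9. Another below the filter had the same order as the brightest. The brightest Slit2 probe set differed little between arrays, with 432 and 399 in the controls against 393 and 420 in the mutants. It lay higher on control 1 and mutant 2, by a separation of 1.05. A dimmer tested Slit2 probe set gave 70.9 and 54.8 in the controls against 76.6 and 97.9 in the mutants. Both mutants were thus above both controls there. Slit1 and Robo3 did not pass the brightness filter.

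Counted over all 56 tested guidance genes, 39 had control 1 and mutant 2 on one side of both other arrays (69.6%), against 53.5% of all tested genes. They were 25 above (44.6%, against 29.6%) and 14 below (25.0%, against 23.9%). By at least 2-fold the counts were 2 above, against 1.57% of all tested genes, and 2 below, against 0.946%, which together are 7.14% of guidance genes against 2.51% of all. The filter used the mean over all arrays, so a gene high on only some arrays could pass through those, as Dcc and Unc5a did. Leaving out an array can only keep or raise the 2-fold count, which was 8 without mutant 1. The count was 2 when all probe sets of a gene were averaged, namely Unc5c and Epha7. Fibroblast markers lay below on control 1 and mutant 2 for 7 of 10 and above for 1. Dpt, Twist1 and Twist2 were at least 2-fold lower there, as for Twist2 at 1196 and 909 against 2943 and 2810. Of 9 tested dermal condensate markers, 4 lay below and 2 above, with sums of 2082 to 2253 over the arrays. Foxd1 and Alpl were at least 2-fold higher on control 1 and mutant 2, as for Foxd1 at 439 and 275 against 100.1 and 88.3. Of 7 tested Schwann cell and nerve markers, 5 lay below and 1 above, with sums of 816 to 986. Sox10 gave 31.2 and 29.8 on control 1 and mutant 2 against 95.2 and 77.4, and S100b gave 211 and 286 against 22.7 and 53.0. The part of these cell types in the guidance values was not tested.

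**Figure D2:**
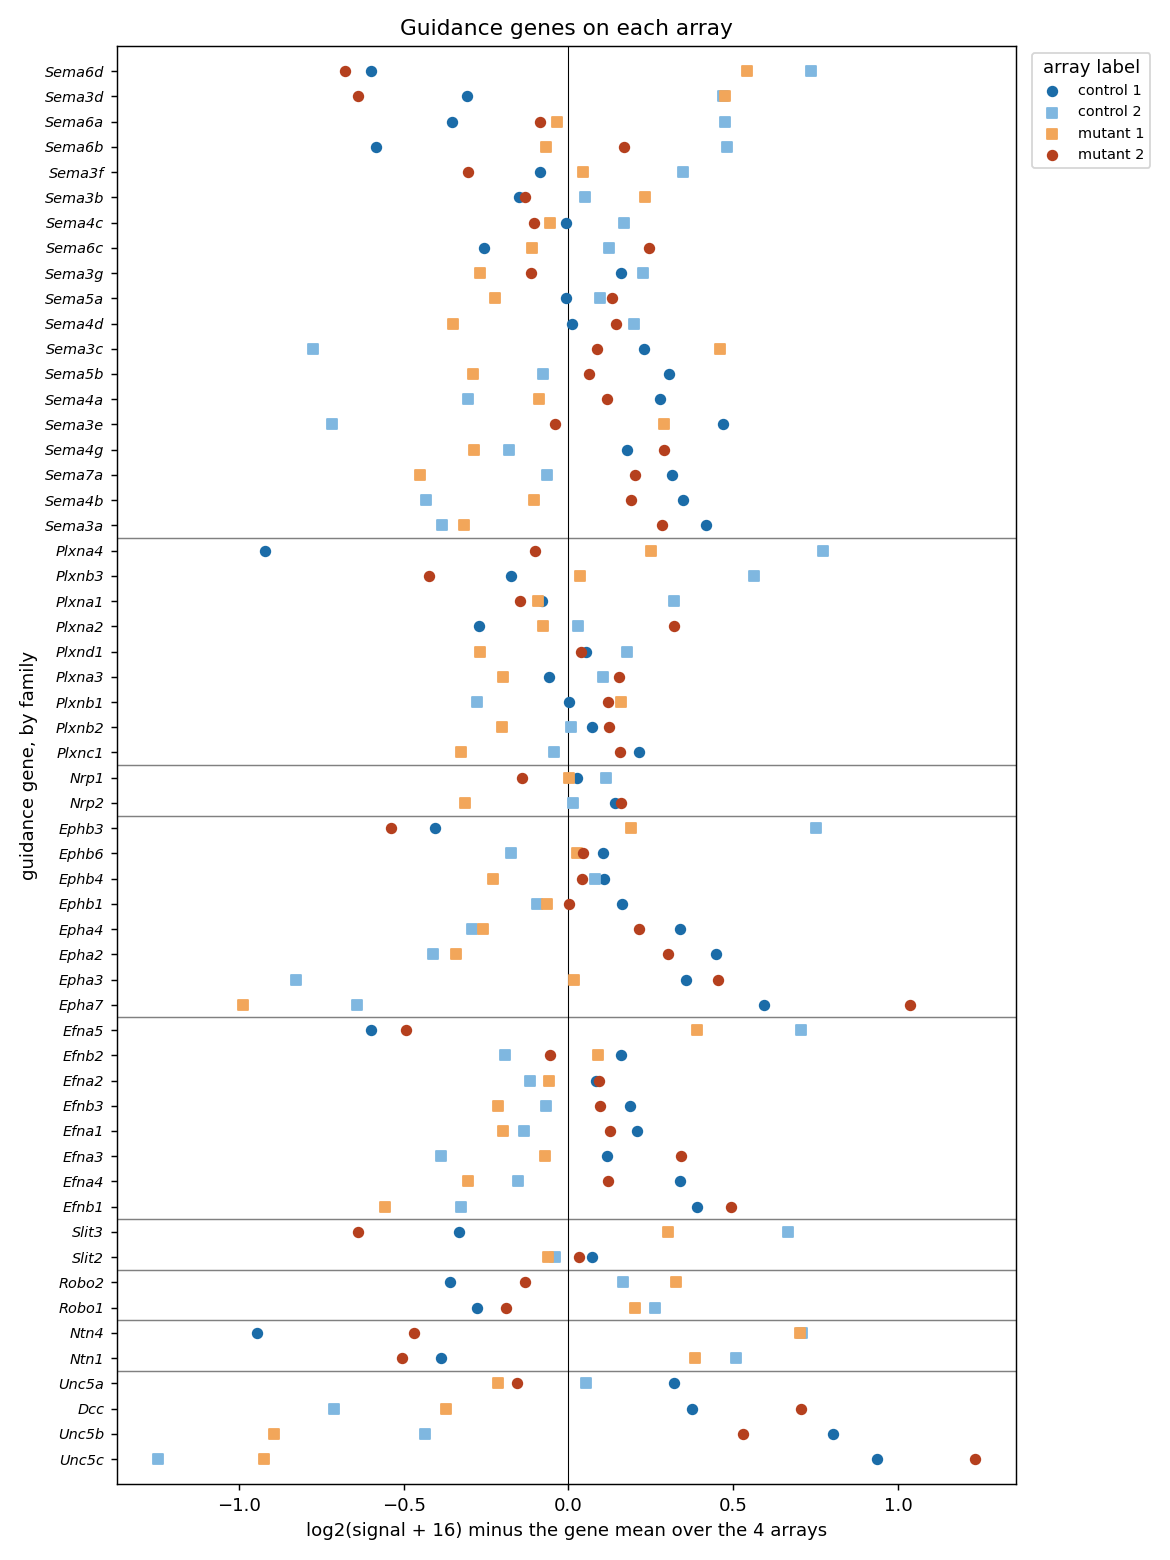
Each row is one of the 56 tested guidance genes, by family, and each point is an array, placed by log2(signal + 16) minus the mean of that gene over the 4 arrays. Circles (control 1 and mutant 2) and squares (control 2 and mutant 1) do not overlap for 39 genes, and Unc5c has the widest gap.

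Arrays of one label differed from each other more over the guidance genes than over all tested genes. The median absolute log2 difference over the tested guidance genes was 0.46 between control 1 and control 2, 0.37 between mutant 2 and mutant 1, and 0.15 between labels. Over all tested genes the same medians were 0.20, 0.20 and 0.088. A difference between single arrays tends to be wider than one between means of 2 arrays, so only the 2 sets of genes are compared here. For 54 of 56 guidance genes (96.4%) the difference by label was smaller than the larger difference within a label, against 88.1% of all tested genes. The exceptions were Sema3g and Unc5a, and Unc5a passed the brightness filter only through the controls. Replicate 2 minus replicate 1 had the same sign in controls and mutants for 12 of 56 guidance genes (21.4%), against 36.0% of all tested genes, and the opposite sign for the other 44. Of those 12, Sema3e, Sema6b and Sema3c differed most between the controls. Sema3e gave 85.7 and 28.7 in the controls against 73.8 and 55.4 in the mutants, and Sema6b gave 20.0 and 59.2 against 35.5 and 44.7. Sema3e, which signals through Plxnd1, was thus lowest on control 2, while Sema6b was lowest on control 1.

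**Figure D3:**
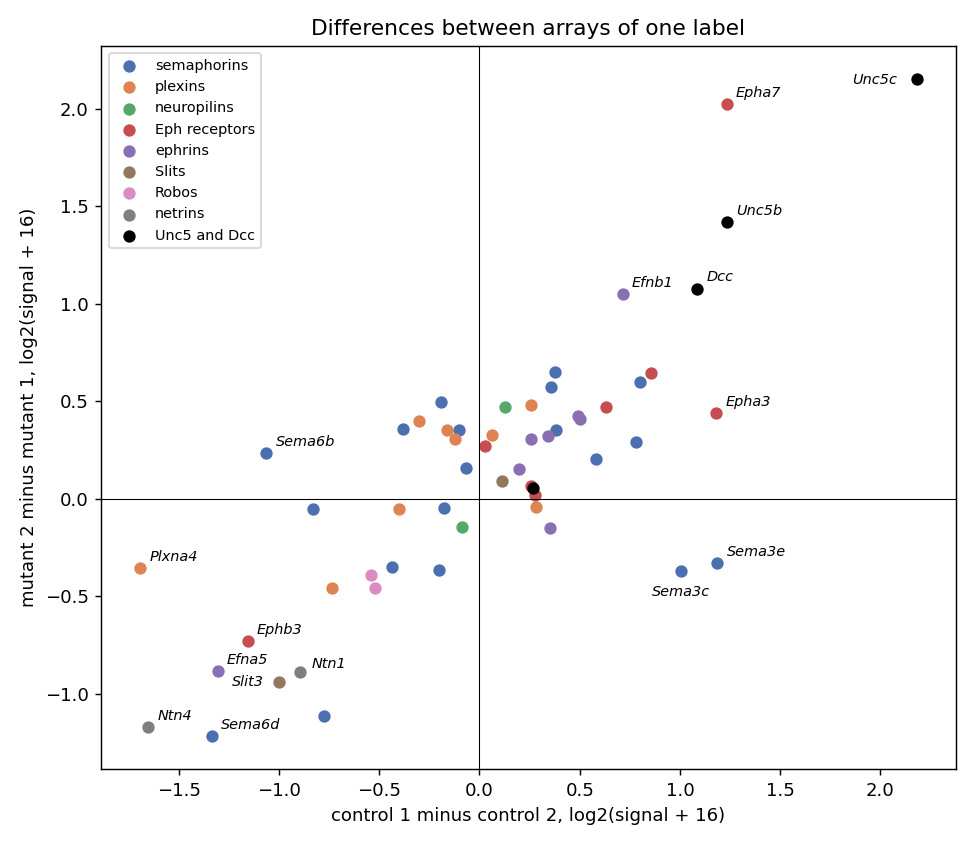
Each point is a tested guidance gene, coloured by family, with the log2 difference between the control arrays on the horizontal axis and that between the mutant arrays on the vertical axis. Most points lie in the lower left or upper right quadrant (44 of 56), with Unc5c at 2.18 and 2.16 and Ntn4 at -1.65 and -1.17.

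By label, no guidance gene passed the test. Of the 56 tested, 0 had a limma adjusted p under 0.05, where 0.0% of all 11413 tested genes did, and 0 had an unadjusted p under 0.05, against 0.859% of all genes and 0.924% of all 22519 tested probe sets. That unadjusted count was 4 without control 1 and 1 without control 2. Every guidance gene had a limma adjusted p of 0.9999, and the lowest unadjusted p was 0.0742, for Sema3g. The methods' t-test, run here by label on the deposited signals, also gave 0 guidance genes at a 2-fold difference. It used neither the GCRMA values nor the present calls behind the authors' deposited table, which lists Unc5c and Epha7. That 0 therefore does not repeat the authors' procedure. The median log2 difference of mutant minus control was -0.06 over guidance genes, with 22 higher and 34 lower, and -0.0042 over all tested genes. Without mutant 1 the median of the guidance genes was 0.0561. The labels give separate samples and do not say whether they came from separate litters, so the errors rest on the spread between 2 arrays a label. They are moderated: limma draws the spread of each gene toward that of probe sets of like signal. An error is therefore not the spread of 1 gene alone.

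The labelled groups did not overlap for 8 of the 56 genes (14.3%), against 19.9% of all tested genes. Both mutant arrays were below both controls for 7 (12.5%, against 11.0%) and above for 1 (1.79%, against 8.97%). Sema3g, a class 3 semaphorin of endothelium, gave 102 and 108 in the controls against 72.02 and 82.08 in the mutants, a log2 difference of -0.38 ± 0.17 (moderated SE, n = 2 per label). Unc5a differed by -0.37 ± 0.20, with a dim signal. It was tested only because its controls were bright enough for the filter, so its place among the lower genes is no support for a difference. Plxna1, a receptor partner of neuropilins, gave 192 and 259 against 191 and 183, a difference of -0.24 ± 0.19 in which control 1 and mutant 1 were nearly level. Plxnd1, the endothelial plexin that restrains vessel sprouting, gave 582 and 635 in the controls against 462 and 576 in the mutants, a difference of -0.23 ± 0.16.

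Ephb4, the receptor that marks veins, gave 252 and 246 in the controls against 196 and 239 in the mutants, a difference of -0.19 ± 0.16. Its ligand Efnb2, which marks arteries, gave 594 and 462 against 566 and 509, a difference of 0.0339 ± 0.17. The other 2 genes lower without overlap were Nrp1 (-0.14 ± 0.12) and Sema4c (-0.16 ± 0.15). Plxnb1, a receptor for Sema4d, was the 1 gene higher without overlap, with 97.1 and 77.2 in the controls against 110.0 and 107 in the mutants, a difference of 0.28 ± 0.18. The dimmer probe sets of Plxnb1 and Plxna1 overlapped between labels, as did 2 of the 3 dimmer ones of Nrp1. These differences moved with single arrays: Plxnd1 was -0.0768 and Ephb4 -0.0532 without mutant 1, Plxna1 was -0.0385 and Plxnb1 0.14 without control 2, and Nrp1 was -0.0697 without mutant 2. Beside these values, 6 of the 10 endothelial markers had both mutant arrays below both controls, against 11.0% of all tested genes. Their median log2 difference was -0.23, against -0.0042 over all tested genes. The summed endothelial signal was 5458 and 5377 in the controls against 4474 and 4610 in the mutants. The part of vessel content in the lower values of Sema3g, Plxnd1, Nrp1 and Ephb4 was not tested.

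The 2 largest positive differences by label rested on 1 array. Sema3c, a semaphorin that can attract axons, differed by 0.55 ± 0.36, with 1413 and 697 in the controls against 1661 and 1280 in the mutants, and without control 2 it was 0.0448. Its second probe set gave 297 and 142 against 401 and 242. Epha3, a receptor for A-class ephrins known in mesenchyme, differed by 0.47 ± 0.42, with 871 and 375 in the controls against 685 and 933 in the mutants, and it turned to -0.12 without control 2. Unc5c differed by 0.31 ± 0.99 and ran from -0.78 to 1.40 as each array was left out. Epha7 (0.0485 ± 0.77), Ntn4 (0.24 ± 0.67), Sema6d (-0.14 ± 0.59) and Unc5b (-0.37 ± 0.62) likewise changed sign without 1 array.

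**Figure D4:**
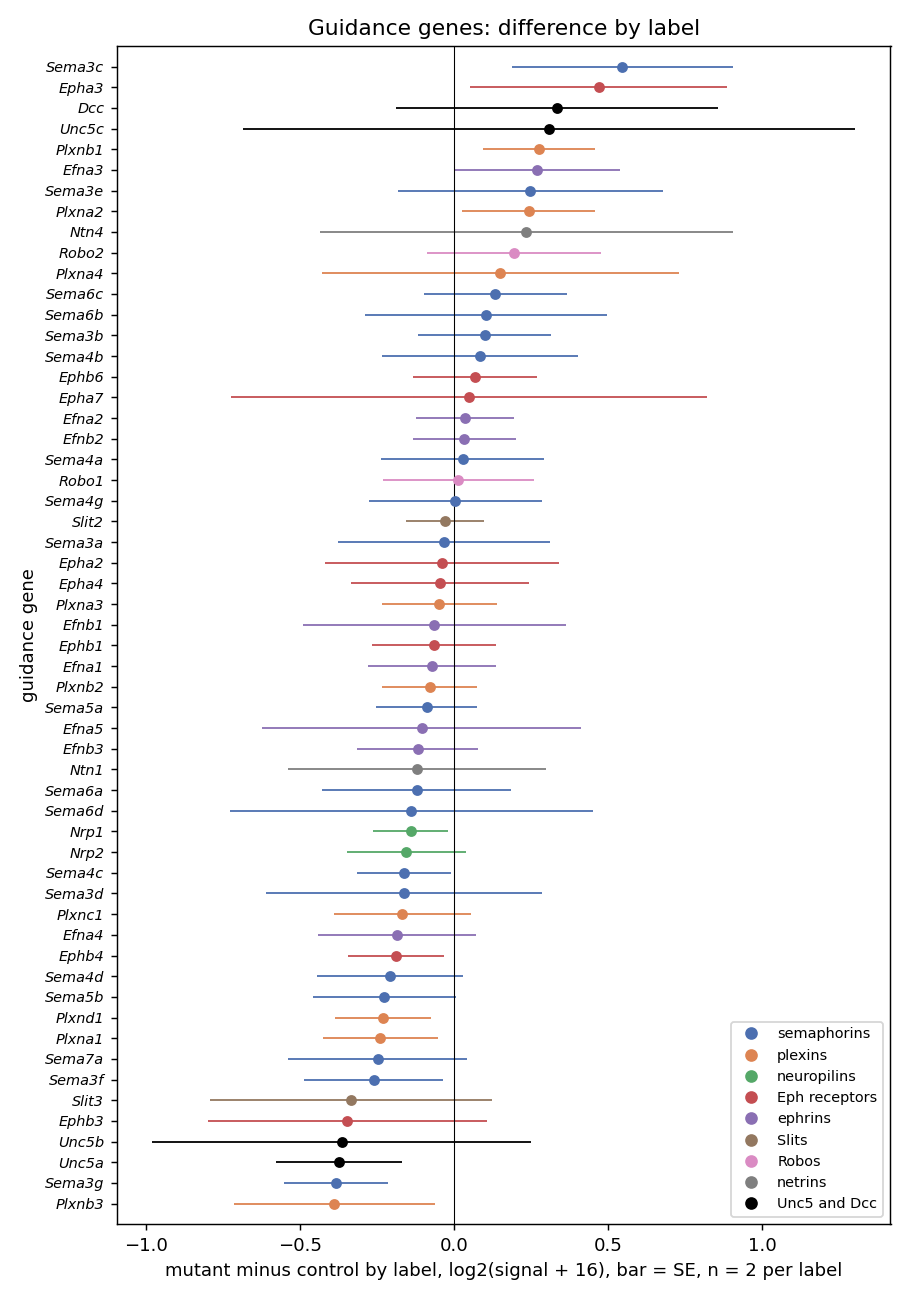
Log2 difference of mutant minus control by array label for each of the 56 tested guidance genes, with bars of 1 moderated SE (n = 2 per label) and colours for families. Points run from -0.39 (Plxnb3) to 0.55 (Sema3c), and bars are widest for genes that differ within a label, such as Unc5c.

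The 9 guidance genes below the brightness filter were Sema4f, Epha1, Epha5, Epha6, Epha8, Epha10, Slit1, Robo3 and Unc5d. Their signals lay between 1.25 and 44.8. Epha8 had the widest range among them, with 44.8 on control 2 and 24.2 on mutant 1 against 1.57 on control 1 and 6.31 on mutant 2. Present and absent calls were not used here, so these values cannot be told from background.

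Partners of the pathways were read from a list of 50 genes, of which 49 were on the array and 39 were tested. By label 0 of the 39 passed (limma), as did 0.0% of all tested genes. The partners were higher for 14 and lower for 25, with a median of -0.05. Of all tested genes 48.7% were higher. Flrt1, a membrane protein that binds Unc5 receptors, had the largest difference among tested partners whose labelled groups did not overlap, with 71.4 and 91.6 in the controls against 62.8 and 54.9 in the mutants. Control 1 and mutant 2 lay above both other arrays for 11 of the tested partners and below for 12. The shares of all tested genes were 29.6% and 23.9%. By at least 2-fold, control 1 and mutant 2 lay below for 2 partners and above for 0, against 0.946% and 1.57% of all tested genes. Rgmb, a co-receptor for BMPs that binds the netrin receptor neogenin, gave 103 and 116 on those arrays against 369 and 348. Nrcam, an adhesion molecule that joins neuropilin complexes, gave 35.5 and 37.5 against 130.1 and 109.7, and the authors' deposited table lists it at 0.134. L1cam, a related adhesion molecule of axons, gave 43.3 and 39.1 against 95.2 and 90.3, and stands at 0.301 in the authors' deposited table. Flrt2, which also binds Unc5 receptors, was higher on control 1 and mutant 2, at 1163 and 1046 against 684 and 606, and neogenin itself (Neo1) gave 524 and 572 against 452 and 359. Flrt3 had the opposite order, at 261 and 267 against 324 and 365, as did Rgma, at 31.5 and 43.9 against 107 and 100.2.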

How the data were processed

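RNA of 4 dermis samples was hybridised to Affymetrix Mouse Genome 430 2.0 arrays. The authors deposited a linear signal intensity for each probe set, made with GCOS and MAS5 per the submitters' processing notes, which name no version. The authors' deposited table gives a ratio of mutant to control from GCRMA values, present on at least 2 of 4 arrays, with an uncorrected Welch test p under 0.01 and a fold of 2, per the file headers. Its 4 columns of values per sample were not used.

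After 64 array controls were left out, log2(signal + 16) was fitted with limma 3.58.1 (lmFit, eBayes with trend) in R 4.3.3, two-sided, by label without a block, with Benjamini-Hochberg adjustment at 0.05 over 22519 probe sets at or above the median log2 mean of 5.515. With that pseudocount, dim genes have smaller fitted differences than their signals have. The fit was tested on simulated data. A gene took its brightest probe set, and signals of different probe sets are not levels to compare. Deviations of same-numbered arrays from their label means correlated at -0.62 over the tested probe sets. Whether the numbers pair the samples cannot be told from this value, since control 1 lying with mutant 2 makes it negative in any case. Separation is the lowest of 2 arrays over the highest of the other 2 on the signal + 16 scale. An array has no read depth, and precision is limited by 4 arrays. Gene symbols were looked up by gene number in the RefSeq table of GRCm38.p6, and 65 of 65 were unchanged. Promoters are from RefSeq, and 55 of 65 members had one. Python 3.11.15, numpy 2.4.6, pandas 2.3.3, scipy 1.17.1 and matplotlib 3.10.9 were used.

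The members, lists and rule for named genes were chosen with earlier results of these data known. The rule took the brightest gene of each family, genes separated 2-fold between the pairs, the 6 largest label differences without overlap and genes of the authors' table, and any other gene was named after its values were seen. The alternatives were pseudocounts of 1 and 64, no brightness filter, quantile normalization, a replicate block and each array left out. Further ones were the mean of all probe sets, the methods' t-test and other folds. That t-test was run by label on the deposited signals, without GCRMA values or present calls, so it does not repeat the authors' procedure. A crossed block and the separations without each array were chosen after seeing the data. Scan day could not be a block, since all arrays share 1 day.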

Additional observations from a re-analysis of the deposited data

How the results depend on the processing

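By label, 0 guidance genes and 0 partners passed under every alternative run, and over all probe sets the count moved from 0 to 3 with the methods' t-test at 2-fold and to 108 with the crossed replicate block, which was picked from these data; without 1 array it ran from 0 to 1, the 1 without mutant 2. With the replicate number as a block the count stayed 0 for all probe sets, guidance genes and partners. The crossed block gave 0 guidance genes. The median difference of guidance genes ran from -0.10 to 0.0561 without 1 array, above 0 only without mutant 1. The count of genes separated 2-fold was 4, and it was 6 with a pseudocount of 1, 2 with a pseudocount of 64, 14 at 1.5-fold, 1 at 3-fold, 2 with the mean of all probe sets, and 5 to 8 without 1 array, highest without mutant 1. An easier fold or fewer arrays can only keep or raise this count, and a stricter fold can only keep or lower it. The causes of the other moves were not tested.

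All 19 named genes kept the sign of their label difference with other pseudocounts, no filter, quantile normalization and the replicate block. Without 1 array, the difference of 11 of them changed sign at least once: Slit2 (-0.0856 to 0.0270), Robo1 (-0.26 to 0.28), Unc5b (-1.08 to 0.35), Ntn4 (-0.59 to 1.06), Epha3 (-0.12 to 1.06), Efnb2 (-0.14 to 0.21), Ntn1 (-0.57 to 0.33), Sema6d (-0.81 to 0.53), Epha7 (-0.96 to 1.06), Unc5c (-0.78 to 1.40) and Plxnb2 (-0.24 to 0.0830). Without a sign change, Plxna1 ran from -0.44 to -0.0385, Plxnd1 from -0.38 to -0.0768, Ephb4 from -0.32 to -0.0532, Nrp1 from -0.21 to -0.0697, Plxnb1 from 0.14 to 0.42, Unc5a from -0.50 to -0.24, Sema3g from -0.46 to -0.30 and Sema3c from 0.0448 to 1.05. The count of guidance genes at an unadjusted p under 0.05 went from 0 to 4 without control 1, 1 without control 2 and 5 with the crossed block. With 2 arrays a label the order of the arrays is not firm, also for bright genes, and Dcc, Unc5a, Ntn4 and Plxna4 are dim besides.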
